A study of Rattus norvegicus with 9 samples.

Results

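The 69 genes described here encode G protein-coupled receptors for neuromodulators: noradrenaline, serotonin, dopamine, acetylcholine, histamine, endocannabinoids, adenosine, extracellular nucleotides, and the peptides cholecystokinin, neuropeptide Y, somatostatin, opioids, tachykinins and galanin. They were found by gene symbol among the 22050 genes of the deposited tables, and all 69 are accounted for. The 9 RNA-seq libraries came from primary cortical neurons of Sprague Dawley rats at embryonic day 19, in 3 groups of 3. The first received 100 ng/ml Wnt3a and 50 ng/ml Rspondin 1 over 24 h under OGD (oxygen-glucose deprivation, used in culture to model stroke) and normal oxygen. Wnt3a activates the Wnt/beta-catenin pathway, and Rspondin 1 strengthens the response to Wnt ligands. The second group went through OGD alone, 4.5 h without glucose at 1% oxygen, followed by normal oxygen. Control cells, in the last group, were untreated. For the group with the proteins the labels give neither the length of OGD nor the oxygen level, and no source used here gives the harvest time. The comparison of OGD with control therefore also takes in the return to normal oxygen. Whether replicates were separate cultures or animals is not stated, and p-values reflect only the spread among these samples, which may be technical.

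These receptors sit in the plasma membrane, bind a transmitter or peptide outside the cell and activate a heterotrimeric G protein inside it. Receptors that couple to Gq activate phospholipase C and raise intracellular calcium, those that couple to Gs raise cyclic AMP, and those that couple to Gi lower cyclic AMP and open inwardly rectifying potassium channels. In the cortex they tune excitability and transmitter release more slowly than the ligand-gated channels do, and several are also made by glia.

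The totals ran from 14285914 to 25048521 counts per library, and the 69 receptor genes together took 0.0258% to 0.032% of counts in the 6 OGD libraries, with or without the proteins, and 0.0835% to 0.0857% in control. On the principal components of all tested genes the control libraries stood far from the rest, and OGD replicate 1 stood apart on the second component (38.8, against -13.9 to 10.5 for the other 8 libraries). The labels call the cells cortical neurons. All 12 neuron markers were read. They summed to 517.5 to 695.7 FPKM (the count scaled by gene length and by library total) after OGD alone, against 3006 to 3149 in control, and all 12 fell. The 11 astrocyte markers summed to 7029 to 7681 FPKM after OGD alone, against 2930 to 3103 in control, with 9 higher and 1 lower. The 12 microglia markers in the table summed to 41.1 to 52.2 FPKM after OGD, against 13.5 to 17 in control, and all 9 that were tested rose. In such bulk samples, fewer cells of a type and less RNA per cell cannot be told apart, and the part that these shifts of cell type markers have in the receptor results was not tested.

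Of the 69 receptor genes, 67 had at least 1 read in some library, and Sstr5 and Hrh4 had none in any of the 9. A count of 0 in a library still allows up to 3 counts. The filter on low counts left 44 receptor genes to test, and 23 had reads but too few. Among them were Adra2b, Adrb3, Htr1d, Htr1f, Htr2b, Htr4, Htr5b, Drd4, Drd5, Chrm5, Npy4r, Tacr2, Galr1, Galr3, Cnr2, Adora3, P2ry2, P2ry6, P2ry10, P2ry12, P2ry13 and P2ry14, with 1 (P2ry10) to 76 (P2ry6) reads over all 9 libraries. A mean of at least 1 FPKM was reached by 17 receptor genes after OGD with Wnt3a plus Rspondin 1, by 19 after OGD alone and by 35 in control.

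On the FPKM scale, which allows levels of different genes to be set side by side, the adenosine receptor gene Adora1 stood first in every library. It had 32.4, 32.9 and 35.6 FPKM after OGD, against 55.6, 51.4 and 52.4 in control. After OGD the order behind Adora1 was the adenosine receptor gene Adora2b (14.7 ± 2.58 FPKM, mean ± SD, n = 3), the cannabinoid receptor gene Cnr1 (10.6 ± 2.29) and the histamine receptor gene Hrh1 (10.4 ± 0.851). These 3 neighbours overlapped in part: the lowest Adora2b library (13) lay just below the highest Cnr1 library (13.1), and Hrh1 lay within the range of Cnr1. In control Adora1 was followed by Cnr1 (mean 39.6 FPKM), the somatostatin receptor gene Sstr1 (30.4) and the muscarinic gene Chrm1 (21.6). The summed FPKM of the receptor genes was 97.4 to 104 after OGD with Wnt3a plus Rspondin 1, 105.5 to 118.1 after OGD alone and 289.5 to 296 in control.

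The make-up of this pool differed as well. Adora1 made up 28.7% to 31.1% of the summed receptor FPKM after OGD, against 17.8% to 18.8% in control. Adora2b made up 11% to 15.6% after OGD, against 2.2% to 2.63% in control, and the histamine receptor gene Hrh1 made up 8.05% to 9.92% after OGD, against 1.32% to 1.5%. Sstr1 held 2.73% to 4.53% after OGD, against 10.2% to 10.6% in control, and Chrm1 held 1.5% to 2.43%, against 7.14% to 7.91%. Grouped by the G protein each receptor is best known to use, Gs-coupled receptors made up 15.7% to 20.5% of the pool after OGD, against 9.77% to 10.1% in control. Adora2b alone carried this larger share: the other 9 Gs-coupled receptor genes together made up 4.72% to 5.53% after OGD, against 7.14% to 7.71% in control. The summed FPKM of the Gs class was itself lower, at 18.6 to 23.1 after OGD, against 28.3 to 29.8 in control. Gi-coupled receptors made up 57.7% to 63.5% after OGD, against 68.7% to 69.8%, and Gq-coupled receptors 20.6% to 21.8%, against 20.4% to 21.2%. For Adora1, Adora2b, Hrh1, Sstr1, Chrm1 and both the Gs and Gi classes the 3 OGD libraries lay wholly on one side of the 3 control libraries. With 3 libraries a side an exact permutation test cannot go below p = 0.1.

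**Figure D1:**
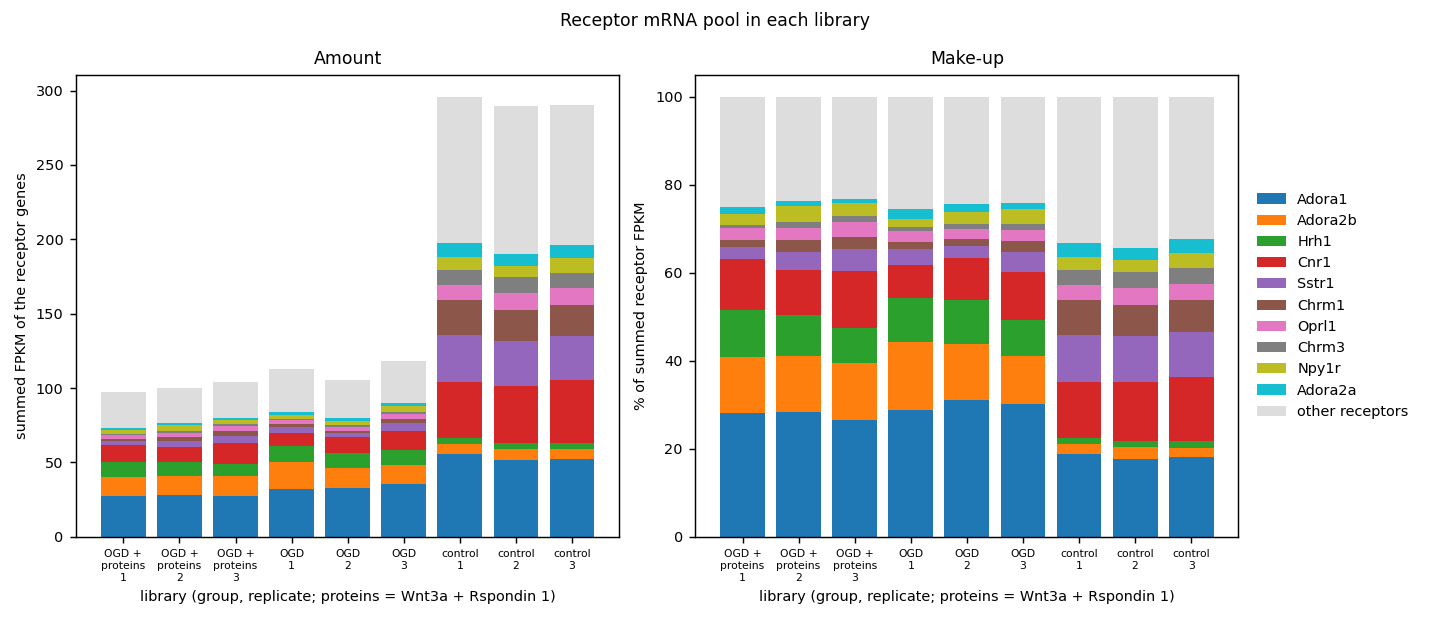
Stacked bars give the summed FPKM of the 69 receptor genes (left, in FPKM) and its make-up (right, in %) for each of the 9 libraries, with OGD plus Wnt3a and Rspondin 1 at the left, OGD in the middle and control at the right, with 10 receptors in colour and the others in light grey. The OGD bars reach 105.5 to 118.1 FPKM and the control bars 289.5 to 296 FPKM, and Adora1, Adora2b and Hrh1 take larger shares after OGD.

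Promoters from RefSeq (build GRCr8, 250 bases before to 50 after an annotated start) were found by symbol for 54 of the 69 receptor genes. Those of Adra1d and Cckbr, which had the largest falls after OGD, of Sstr2, the 1 receptor with a full cyclic AMP response element, and of Adora2b and Hrh1, which rose, are given 5′ to 3′. They lie at chr3:139262282-139262581 (minus strand), chr1:169183328-169183627 (plus strand), chr10:99163103-99163402 (plus strand), chr10:47439462-47439761 (plus strand) and chr4:149120261-149120560 (plus strand). Each spans the start of its gene and so takes in the first transcribed bases. Capitals mark matches, on either strand, to 6 motifs: the cyclic AMP response element TGACGTCA, the AP-1 element TGANTCA, the hypoxia response element core ACGTG, the TCF/LEF element CTTTGA used by Wnt signalling, the GC box GGGCGG and the TATA box TATAAA.
Adra1d: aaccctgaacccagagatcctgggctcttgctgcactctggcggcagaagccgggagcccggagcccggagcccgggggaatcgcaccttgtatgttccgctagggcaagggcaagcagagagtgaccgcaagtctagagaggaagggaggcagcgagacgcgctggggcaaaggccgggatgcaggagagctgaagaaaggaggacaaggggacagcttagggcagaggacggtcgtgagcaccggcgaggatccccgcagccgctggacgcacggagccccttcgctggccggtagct
Cckbr: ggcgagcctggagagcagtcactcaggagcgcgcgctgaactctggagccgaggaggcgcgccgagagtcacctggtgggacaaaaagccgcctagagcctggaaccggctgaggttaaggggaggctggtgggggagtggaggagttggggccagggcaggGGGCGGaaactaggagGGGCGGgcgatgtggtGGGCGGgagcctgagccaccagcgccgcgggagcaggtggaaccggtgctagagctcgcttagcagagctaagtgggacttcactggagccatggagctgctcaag
Sstr2: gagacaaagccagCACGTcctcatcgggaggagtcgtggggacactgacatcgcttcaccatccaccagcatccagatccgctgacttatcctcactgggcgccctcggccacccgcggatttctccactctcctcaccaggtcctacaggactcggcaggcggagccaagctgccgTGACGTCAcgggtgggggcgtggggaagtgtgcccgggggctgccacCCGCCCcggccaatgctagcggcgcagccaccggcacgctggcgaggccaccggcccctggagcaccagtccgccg
Adora2b: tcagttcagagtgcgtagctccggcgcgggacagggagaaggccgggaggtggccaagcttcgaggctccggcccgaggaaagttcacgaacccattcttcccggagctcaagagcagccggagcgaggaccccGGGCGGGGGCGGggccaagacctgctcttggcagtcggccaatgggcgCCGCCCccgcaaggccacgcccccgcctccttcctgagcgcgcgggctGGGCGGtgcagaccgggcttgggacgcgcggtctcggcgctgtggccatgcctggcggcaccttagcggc
Hrh1: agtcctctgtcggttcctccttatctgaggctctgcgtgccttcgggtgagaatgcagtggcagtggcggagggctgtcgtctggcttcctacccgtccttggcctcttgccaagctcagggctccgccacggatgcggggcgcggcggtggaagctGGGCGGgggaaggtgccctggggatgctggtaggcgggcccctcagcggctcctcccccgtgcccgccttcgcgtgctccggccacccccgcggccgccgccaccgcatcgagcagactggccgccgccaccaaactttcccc

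In these 5 windows, Cckbr held 3 GC boxes, Adora2b held 4, of which 2 abut, and Hrh1 held 1. Sstr2 held 1 GC box, the core of a hypoxia response element and the cyclic AMP response element, whose own bases include no other motif searched. Adra1d held none of the 6. All 5 were rich in G and C (65.7% to 72%). Over the 31 promoters of receptors that were lower after OGD, a GC box occurred in 38.7%, the hypoxia core in 6.45%, the TCF/LEF element in 9.68% and the cyclic AMP response element in 3.23%. Over all 33469 promoters of the table the shares were 33.1%, 19.3%, 16.1% and 1.83%. The 4 promoters of receptors that were higher held the GC box in 2 cases and none of the others. The median content of G and C was 62.7% for the lower receptors, 62.3% for the higher ones and 51.7% for all promoters. A match is only a run of letters, and the lack of one says only that these letters are not in this window.

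OGD alone was set against control to see how the receptors fared after the insult. Most of the tested receptor genes were lower, among them the well-read genes Cnr1, Sstr1, Chrm1, Chrm3, Oprl1 and Adora2a. The receptor genes Hrh1, Adora2b, Drd3 and P2ry4 rose, and P2ry1 and Adra1a did not pass the test. With p-values of edgeR's quasi-likelihood test adjusted by Benjamini-Hochberg over all 13693 tested genes, 42 of the 44 tested receptor genes passed an adjusted p of 0.05, 38 lower and 4 higher. Among all tested genes 73.1% passed, 36.8% lower and 36.3% higher. The median log2 change of the 44 was -2.38, against 0.02 over all tested genes. The 3 OGD libraries lay wholly below the 3 control libraries for 38 of the 44 (38.1% of all tested genes) and wholly above for 4 (37%), where either held for 75.1% of all tested genes.

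The counts of falls need a limit. Of the 44, 16 passed the filter on low counts in all 3 libraries of control but of neither OGD group: Adra1d, Htr1a, Htr2a, Htr2c, Htr6, Chrm2, Cckar, Cckbr, Npy2r, Npy5r, Sstr3, Oprd1, Oprk1, Tacr1, Tacr3 and Hrh3. Except for Htr2c and Hrh3, they passed only through the control libraries, where they were high, and had to be lower after OGD. Htr2c also passed in 1 library of OGD alone and 2 with the proteins, and Hrh3 in 2 and 1. The filter therefore did not fix the direction of Htr2c and Hrh3. The falls of the 16 are given as values and do not support a count over a family. The median log2 change over the 44 includes them and has the same limit. Of the 27 that passed in all 3 libraries of control and of at least 1 OGD group, 22 fell, 3 rose and 2 did not pass the test. Drd3 passed through OGD libraries only and so had to be higher. Without OGD replicate 1, the library that stood apart, 44 of 49 tested receptor genes passed, 41 lower and 3 higher. In that fit 73.4% of all tested genes passed.

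**Figure D2:**
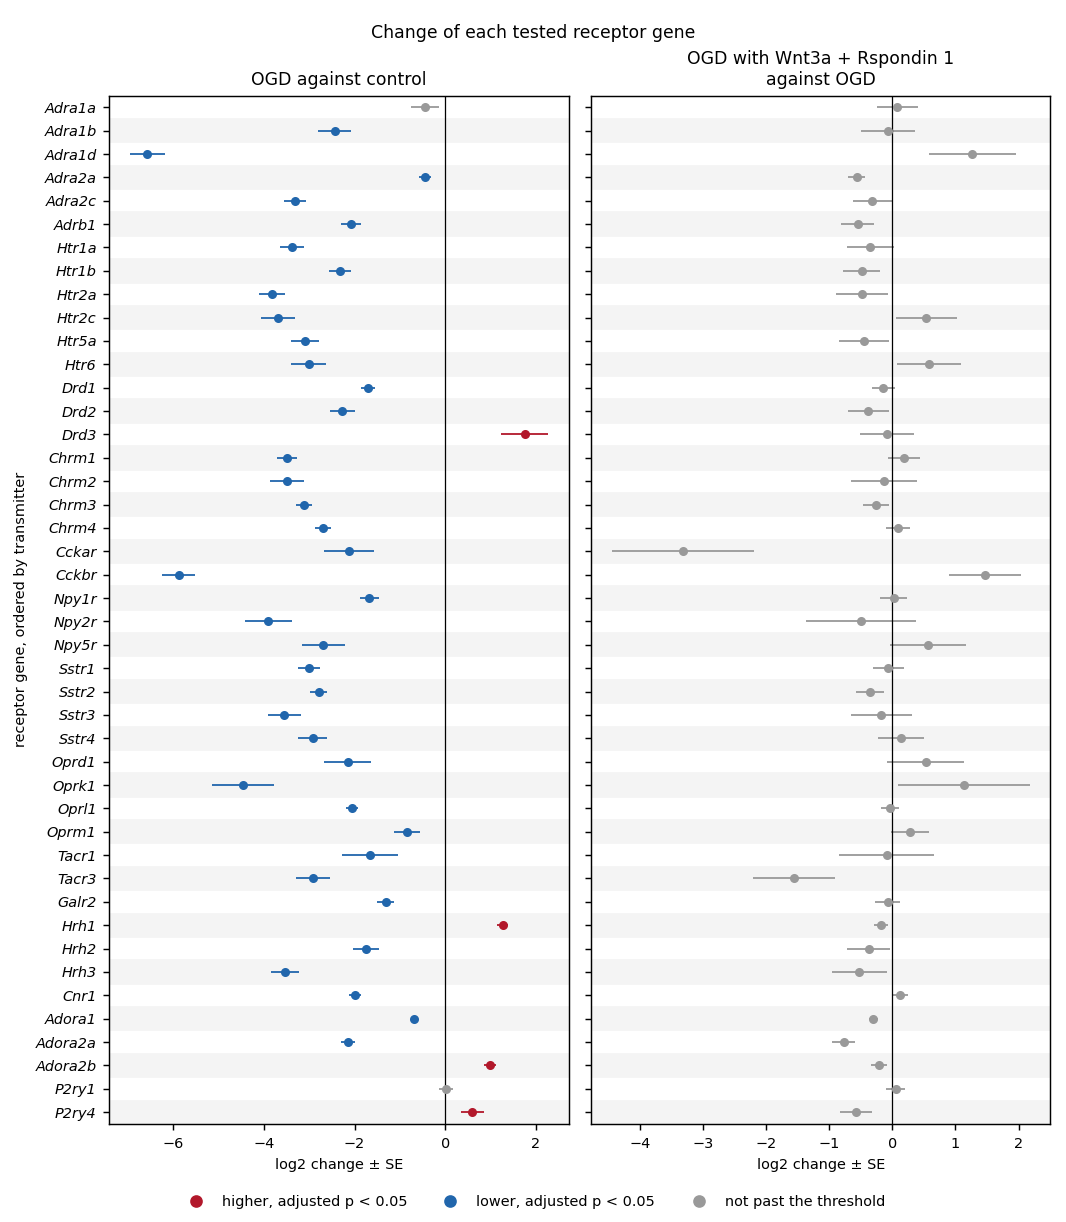
Each point is the log2 change of 1 of the 44 tested receptor genes with its standard error, for OGD against control (left) and for OGD with Wnt3a plus Rspondin 1 against OGD (right, on its own scale). Red points are higher and blue points lower at an adjusted p under 0.05 by edgeR's quasi-likelihood test, and grey points did not pass: 38 points are blue and 4 red at the left, and all 44 are grey at the right.

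Of the 5 noradrenaline receptor genes that did not rest on control libraries to pass the filter, 4 fell. Over all tested genes 36.8% were lower. Adra1d (ENSRNOG00000021256), a Gq-coupled receptor, fell the most of all receptor genes, with 1 read in each OGD library and 110, 92 and 146 reads in the controls (log2 change -6.56 ± 0.38, adjusted p = 6.52e-09). From the summed reads it was 99.9-fold lower, with an exact 95% interval of 33.9 to 487 that covers counting error only. Its relative Adra1b had 0.53, 0.16 and 0.38 FPKM after OGD, against 1.88, 2 and 1.41 in control (log2 change -2.44 ± 0.36, adjusted p = 3.84e-05). Adra1a, the other gene of this subfamily, had 0.41, 0.55 and 0.72 FPKM after OGD, against 0.56, 0.94 and 0.69 in control, and these groups overlapped (log2 change -0.44 ± 0.31, adjusted p = 0.218). Of the Gi-coupled receptors, Adra2c had 0.49, 0.69 and 0.67 FPKM after OGD, against 5.78, 6.24 and 5.62 in control (log2 change -3.31 ± 0.24, adjusted p = 5.37e-08). Adra2a, which restrains noradrenaline release as an autoreceptor, had 5.95, 5.7 and 4.58 FPKM after OGD, against 7.02, 7.46 and 6.49 in control (log2 change -0.45 ± 0.13, adjusted p = 0.00806). Adrb1, a Gs-coupled receptor, had 1.05, 1.7 and 1.36 FPKM after OGD, against 6.32, 4.99 and 5.41 in control (log2 change -2.08 ± 0.22, adjusted p = 1.93e-06). For Adra1b, Adra2c, Adra2a and Adrb1 each OGD library lay below each control library.

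Of 6 tested serotonin receptor genes, Htr1a, Htr2a and Htr6 passed the filter through control libraries only, which fixed their direction. Htr2c, which fell, also passed in 1 library of OGD alone and 2 with the proteins, so its direction was not fixed. The other 2, Htr1b and Htr5a, fell as well, where 36.8% of all tested genes were lower. Htr1a, which inhibits neurons through Gi, had 0.44, 0.28 and 0.3 FPKM after OGD, against 3.61, 3.38 and 2.96 in control (log2 change -3.37 ± 0.26, adjusted p = 1.06e-07). Htr5a had 0.36, 0.44 and 0.32 FPKM after OGD, against 3.08, 3.37 and 2.78 in control (log2 change -3.09 ± 0.30, adjusted p = 8.17e-07), and Htr1b, a presynaptic inhibitory receptor, had 0.55, 0.5 and 0.54 FPKM after OGD, against 2.3, 2.29 and 2.83 in control (log2 change -2.32 ± 0.24, adjusted p = 1.35e-06). No OGD library of these 3 genes reached the lowest control library. The Gq-coupled receptor gene Htr2a, a target of serotonergic hallucinogens, had a log2 change of -3.83 ± 0.29, Htr2c of -3.69 ± 0.37 and the Gs-coupled Htr6 of -3.01 ± 0.39 (adjusted p = 6.62e-08, 1.21e-06 and 1.37e-05). For Htr2c the length implied by counts and FPKM varied 1.39-fold between libraries, so its counts are the safer scale: 2, 6 and 11 reads after OGD and 90, 67 and 118 in control. Htr4 had no read in any OGD library and 7, 15 and 21 in the controls. With the floor set at 3 counts in each library it was at least 4.01-fold lower, and it was below the filter.

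Among dopamine receptors, Drd1, which couples to Gs, had 1.03, 1.25 and 1.42 FPKM after OGD, against 3.72, 3.41 and 4.25 in control (log2 change -1.71 ± 0.16, adjusted p = 6.36e-07). Drd2, which couples to Gi, had 0.55, 0.41 and 0.69 FPKM after OGD, against 2.76, 2.59 and 2.17 in control (log2 change -2.27 ± 0.28, adjusted p = 7.56e-06). Both fell, and Drd3, another Gi-coupled receptor, was higher at a low level. Drd3 passed the filter through OGD libraries only, which fixed its direction. It had 13, 23 and 11 reads after OGD, against 8, 1 and 6 in control (log2 change 1.75 ± 0.52, adjusted p = 0.00816). Drd4 and Drd5 had too few reads to be tested.

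Chrm1, Chrm3 and Chrm4, the 3 muscarinic acetylcholine receptor genes that passed the filter in OGD libraries too, fell. Among all tested genes 36.8% were lower. Chrm1 (ENSRNOG00000018385), the Gq-coupled receptor that dominates in cortical pyramidal neurons, had 1.78, 1.58 and 2.87 FPKM after OGD, against 23.4, 20.7 and 20.8 in control (log2 change -3.48 ± 0.22, adjusted p = 1.79e-08). Chrm3, also Gq-coupled, had 1.02, 1.23 and 1.55 FPKM after OGD, against 10.3, 10.4 and 10.4 in control (log2 change -3.12 ± 0.18, adjusted p = 7.02e-09). The Gi-coupled Chrm4 had 1.81, 1.13 and 1.11 FPKM after OGD, against 8.13, 8.01 and 8.06 in control (log2 change -2.69 ± 0.17, adjusted p = 1.72e-08). For these 3 every OGD library lay below every control library. Chrm2 had a log2 change of -3.48 ± 0.37 (adjusted p = 2.23e-06) at a lower level. Chrm5, below the filter, had no read after OGD and 9, 4 and 20 in control, at least 2.81-fold lower with the same floor. Summed over the family, muscarinic receptors had 4.08 to 5.79 FPKM after OGD, against 41 to 43.5 in control.

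Of 16 tested receptor genes for peptides, 9 passed the filter through control libraries only, which fixed their direction. The other 7, Npy1r, Sstr1, Sstr2, Sstr4, Oprl1, Oprm1 and Galr2, fell, where 36.8% of all tested genes were lower. Cckbr (ENSRNOG00000017679), the main cholecystokinin receptor of the brain, had 1, 2 and 2 reads after OGD, against 118, 93 and 130 in control (log2 change -5.88 ± 0.36, adjusted p = 1.13e-08). From the summed reads it was 58.7-fold lower (exact 95% interval 24.9 to 182, counting error only). Sstr1, a Gi-coupled somatostatin receptor and one of the best expressed receptors in control, had 4.01, 2.88 and 5.35 FPKM after OGD, against 31.2, 30.3 and 29.7 in control (log2 change -3.00 ± 0.24, adjusted p = 7.45e-07). Sstr2 had 1.04, 0.95 and 1.49 FPKM after OGD, against 7.29, 7.76 and 7.4 in control (log2 change -2.79 ± 0.19, adjusted p = 2.37e-08), and Sstr4 had 1.16, 0.77 and 1.23 FPKM after OGD, against 7.53, 7.8 and 6.9 in control (log2 change -2.92 ± 0.32, adjusted p = 2.93e-06). The log2 change of Sstr3 was -3.54 ± 0.36 (adjusted p = 1.24e-06), and Sstr5 had no read.

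The neuropeptide Y receptor gene Npy1r had 2.12, 2.74 and 4.06 FPKM after OGD, against 8.47, 7.94 and 10.1 in control (log2 change -1.67 ± 0.20, adjusted p = 7.21e-06). Npy2r had 0, 0.16 and 0.17 FPKM after OGD, against 1.78, 1.62 and 1.71 in control (log2 change -3.90 ± 0.52, adjusted p = 1.61e-05). Both couple to Gi, and Npy2r is known as a presynaptic receptor. Oprl1, the nociceptin receptor, had 2.85, 2.54 and 2.91 FPKM after OGD, against 10.1, 11.4 and 11.1 in control (log2 change -2.05 ± 0.13, adjusted p = 1.83e-08). The classical opioid receptor genes were expressed at a lower level: Oprm1, the target of morphine, had 15, 28 and 24 reads after OGD, against 40, 34 and 58 in control (log2 change -0.84 ± 0.29, adjusted p = 0.0194). The log2 change was -4.46 ± 0.67 for Oprk1 and -2.15 ± 0.51 for Oprd1 (adjusted p = 5.34e-05 and 0.00215). The call of Oprm1 was lost without control replicate 3 (adjusted p = 0.0628), OGD replicate 1 (0.0517) or OGD replicate 2 (0.0531). The galanin receptor gene Galr2 had 5.2, 2.82 and 3.45 FPKM after OGD, against 9.52, 8.36 and 7.98 in control (log2 change -1.32 ± 0.19, adjusted p = 3.02e-05). For Oprl1 and Galr2 the length implied by counts and FPKM varied by 1.22-fold and 1.2-fold between libraries, which the test on counts does not use.

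Of the remaining tested peptide receptor genes, the log2 change was -2.12 ± 0.55 for Cckar, -2.69 ± 0.47 for Npy5r, -2.92 ± 0.38 for the neurokinin B receptor gene Tacr3 and -1.66 ± 0.61 for the substance P receptor gene Tacr1 (adjusted p = 0.00353, 0.000196, 1.26e-05 and 0.0266). The call of Tacr1 was lost without control replicate 1 (adjusted p = 0.103), control replicate 3 (0.0535) or OGD replicate 2 (0.112).

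Histamine receptors moved in opposite directions. Hrh1 (ENSRNOG00000007420), a Gq-coupled receptor present on neurons and astrocytes, rose: it had 11.2, 10.4 and 9.5 FPKM after OGD, against 3.91, 3.9 and 4.35 in control (log2 change 1.27 ± 0.12, adjusted p = 7.84e-07). Hrh3, the Gi-coupled receptor that restrains transmitter release, fell, with 0.42, 0.16 and 0.47 FPKM after OGD, against 3.76, 3.52 and 3.28 in control (log2 change -3.54 ± 0.31, adjusted p = 3.64e-07). The Gs-coupled Hrh2 had 0.58, 0.42 and 0.84 FPKM after OGD, against 1.82, 2.3 and 1.66 in control (log2 change -1.74 ± 0.29, adjusted p = 0.000135). The FPKM ratio of Hrh1 over Hrh3 was 20.2 to 65.1 in the OGD libraries, against 1.04 to 1.33 in control. Hrh3 had only 12, 7 and 15 reads after OGD, which limits this ratio. Summed over the family, histamine receptors had 10.8 to 12.2 FPKM after OGD, against 9.29 to 9.72 in control.

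The cannabinoid receptor gene Cnr1 (ENSRNOG00000008223), the main brain receptor for endocannabinoids, had 8.54, 10.1 and 13.1 FPKM after OGD, against 37.9, 38.6 and 42.5 in control (log2 change -1.99 ± 0.13, adjusted p = 2.35e-08). The median log2 change of the 12 neuron markers was -2.63. After OGD only Adora1 and Adora2b had a higher mean FPKM than Cnr1 among the receptor genes. Cnr2, known from immune cells, had 0 to 2 reads in each library.

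Adenosine receptors split by subtype. Adora1 (ENSRNOG00000003442), the Gi-coupled receptor through which adenosine dampens transmitter release, fell moderately, by a log2 change of -0.68 ± 0.07 (adjusted p = 1.29e-06), with the FPKM given above. Adora2a, a Gs-coupled receptor, had 2.42, 2.02 and 1.79 FPKM after OGD, against 9.49, 7.71 and 8.68 in control (log2 change -2.14 ± 0.16, adjusted p = 7.04e-08). Adora2b (ENSRNOG00000002922), the other Gs-coupled adenosine receptor and one with low affinity for adenosine, rose, with 17.6, 13.4 and 13 FPKM after OGD, against 7, 7.62 and 6.39 in control (log2 change 0.98 ± 0.13, adjusted p = 1.73e-05). The FPKM ratio of Adora2b over Adora2a was 6.64 to 7.29 in the OGD libraries, against 0.736 to 0.988 in control. Adenosine receptors together made up 42.7% to 46.5% of the receptor FPKM after OGD, against 23.1% to 24.4% in control.

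Neither tested receptor gene for extracellular nucleotides fell. P2ry6, below the filter, had 3, 5 and 2 reads after OGD, against 10, 25 and 16 in control. P2ry1, a Gq-coupled receptor for ADP, had 1.76, 2.32 and 1.86 FPKM after OGD, against 1.75, 1.97 and 1.82 in control, and the groups overlapped. Its log2 change was 0.02 ± 0.15 (adjusted p = 0.893, 95% interval -0.31 to 0.35). P2ry4, a receptor for UTP, had 1.84, 1.68 and 2.53 FPKM after OGD, against 1.27, 1.42 and 1.09 in control (log2 change 0.60 ± 0.25, adjusted p = 0.0433). This call was weak: it was lost without control replicate 1 (adjusted p = 0.08), control replicate 3 (0.144), OGD replicate 1 (0.0538) or OGD replicate 3 (0.188). P2ry12, the ADP receptor of microglia, had only 5, 4 and 3 reads after OGD and 1, 2 and 0 in control, beside the rise of the microglia markers. P2ry13, also known from microglia, had 0 or 1 read in each library.

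**Figure D3:**
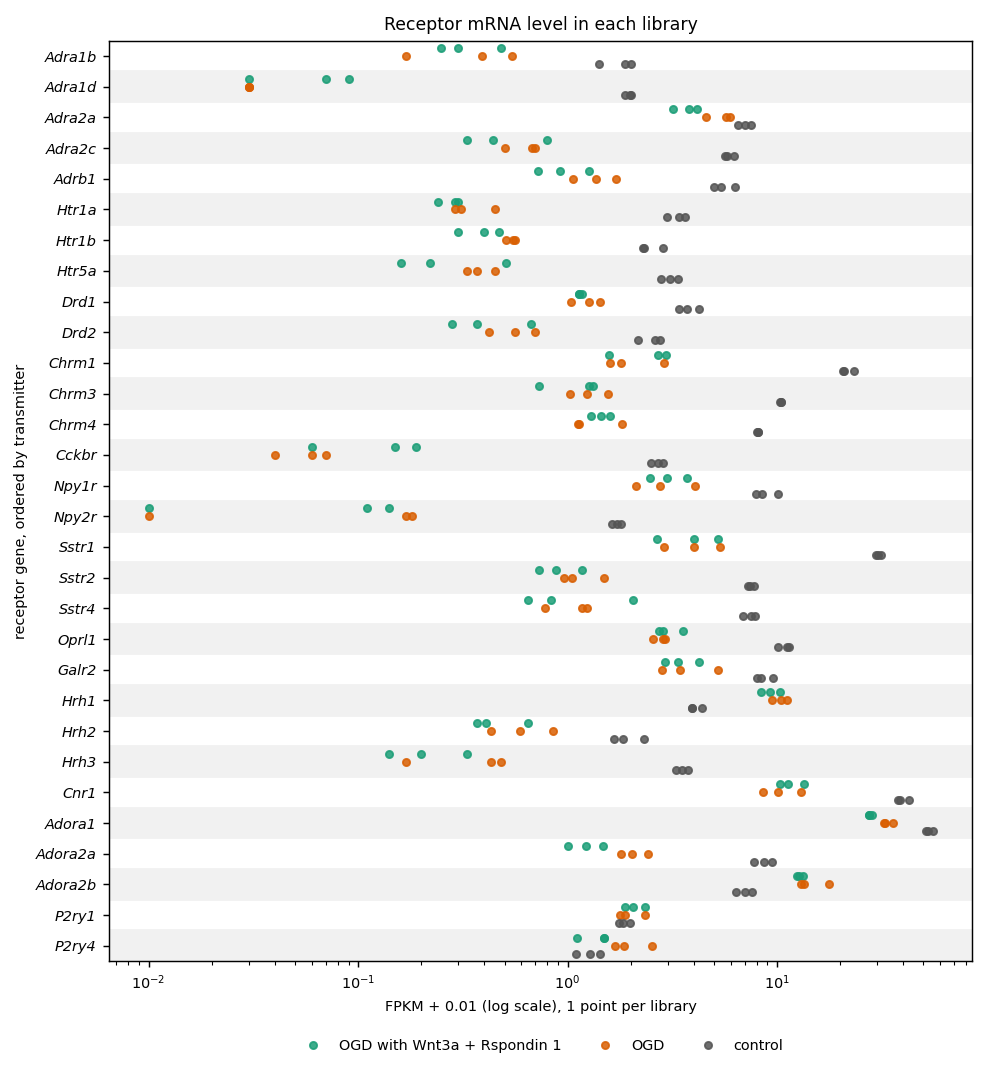
FPKM (plus 0.01, log scale) of the 30 receptor genes described in full, with 1 point per library, in green for OGD with Wnt3a plus Rspondin 1, in orange for OGD and in grey for control. Grey points lie to the right of the others for most genes, Hrh1, Adora2b and P2ry4 have their orange points to the right of the grey, and green and orange points overlap for most genes.

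Genes that act downstream of these receptors are given beside the 36.8% of all tested genes that were lower after OGD and the 36.3% that were higher. Of 24 tested G protein subunit genes, 15 fell and 6 rose (median log2 change -1.10). Among them Gng4 changed by -2.90 ± 0.08, the inhibitory alpha subunit gene Gnai1 by -1.69 ± 0.07 and Gnaz by -2.60 ± 0.12. Those that rose were Gnai2, Gnai3, Gna12, Gna13, Gnb3 and Gng12, named after their values were seen. Of 21 tested genes of RGS proteins, receptor kinases and arrestins, which end receptor signalling, 14 fell and 5 rose (median -1.03), with Rgs4 at -4.22 ± 0.20, Rgs6 at -1.75 ± 0.10 and Grk2, the kinase that starts receptor desensitization, at -1.69 ± 0.07. Of 23 adenylyl cyclase, phospholipase C, inositol trisphosphate receptor, protein kinase A and G protein-gated potassium channel genes, 20 fell and 3 rose (median -1.66). The cyclase genes Adcy5 and Adcy8 changed by -2.36 ± 0.10 and -2.58 ± 0.12, and the kinase A regulatory subunit gene Prkar1b by -2.72 ± 0.14. Of 14 phosphodiesterase genes, 7 fell and 6 rose (median -0.49), an about even split as over all tested genes. Among them Pde2a changed by -2.58 ± 0.13, Pde10a by -2.07 ± 0.14 and Pde4d by -2.14 ± 0.15.

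Genes that make, carry or remove the ligands are set against the same shares, 36.8% lower and 36.3% higher over all tested genes. Of 10 tested peptide precursor genes, 8 fell and 2 rose (median log2 change -2.18). Npy changed by -3.42 ± 0.17, Cck by -2.45 ± 0.13 and Sst by -2.63 ± 0.15, and Pomc and Gal were higher. The receptor genes Npy1r, Sstr1, Sstr2 and Sstr4 fell as well. Cckar, Cckbr, Npy2r, Npy5r and Sstr3 had passed the filter through control libraries only, which fixed their direction. Of 12 genes of amine and acetylcholine handling, 6 fell and 5 rose (median -0.40), an about even split as over all tested genes. Ache, which breaks down acetylcholine, changed by -3.63 ± 0.21, while the serotonin synthesis gene Tph2 changed by 1.84 ± 0.17, at a mean of 2.72 FPKM after OGD and 0.717 in control. Of 7 endocannabinoid enzyme genes 2 fell and 2 rose (median 0.11). Dagla, which makes an endocannabinoid, changed by -1.68 ± 0.12, and the anandamide hydrolase gene Faah by -1.86 ± 0.16. Mgll, which degrades the endocannabinoid that Dagla makes, changed by 0.81 ± 0.12. Of 7 genes of adenosine and nucleotide handling 2 fell and 1 rose (median -0.05): the nucleoside transporter genes Slc29a1 and Slc29a2 changed by -2.46 ± 0.17 and -1.05 ± 0.14, and the ectonucleotidase gene Entpd2 by 1.32 ± 0.10.

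**Figure D4:**
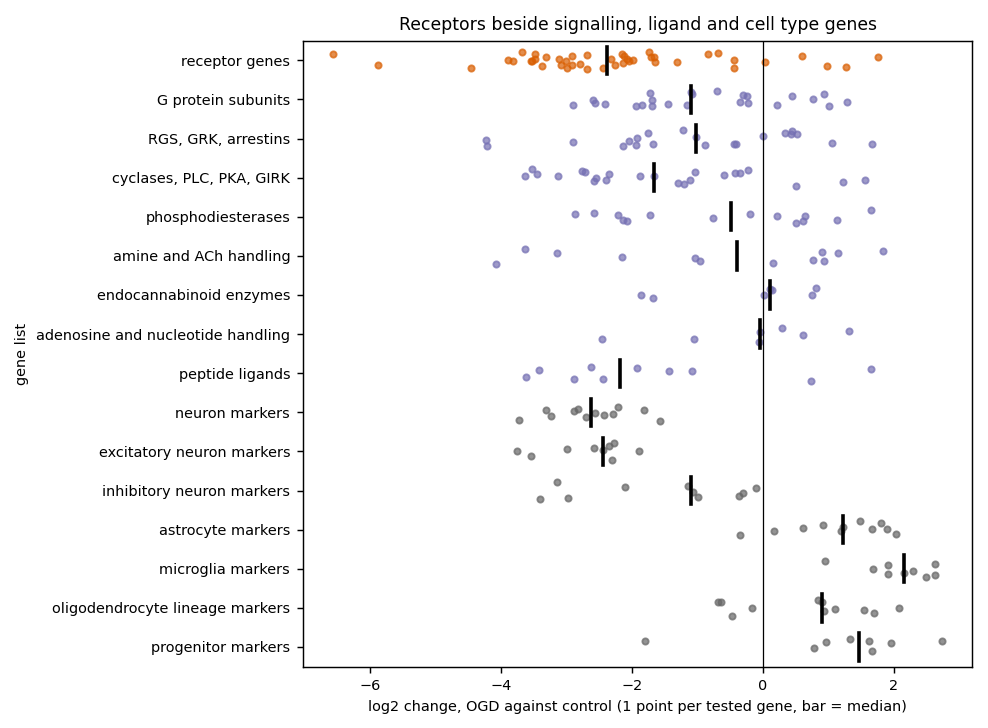
Log2 change of each tested gene after OGD against control (1 point per gene, black bar for the median), with the 44 receptor genes at the top, then genes of G protein signalling, ligand handling and cell type markers. The median is -2.38 for the receptors, -2.63 for the 12 neuron markers, -1.10 for the 10 inhibitory neuron markers and 1.22 for the 11 astrocyte markers. The receptors include 16 genes that passed the filter in all 3 libraries of control but of neither OGD group, which limits their median.

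As context for these values, the median log2 change was -2.44 for the 9 tested markers of excitatory neurons, all lower, and -1.10 for the 10 of inhibitory neurons, of which 9 were lower. It was 1.47 for 8 progenitor markers, of which 7 were higher and 1 lower, and 0.90 for 11 markers of the oligodendrocyte lineage, of which 7 were higher and 3 lower. Endothelial markers were sparse, with 15 to 16.9 FPKM summed after OGD, against 30 to 34.2 in control. Of 3 tested, 2 were higher and 1 lower, and Cldn5 had no read. The 10 markers of mural cells and fibroblasts in the table summed to 677.5 to 891.4 FPKM after OGD, against 101.9 to 126.1 in control. Of 8 tested, 3 were higher and 3 lower, with Acta2 at 4.16 ± 0.46.

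OGD with Wnt3a plus Rspondin 1 was set against OGD alone to find receptor genes that the 2 proteins changed under OGD. None of the 44 tested receptor genes passed an adjusted p of 0.05 by edgeR's quasi-likelihood test, against 0.197% of all tested genes (0.175% higher, 0.0219% lower). At an unadjusted p under 0.05 there were 7, of which 6 were lower and 1 higher, against 5.73% of all tested genes (2.99% lower, 2.74% higher). DESeq2 called 3 of the 40 receptor genes it gave an adjusted p, all lower, against 0.752% of all genes. The median log2 change was -0.14, against 0.00 over all tested genes. Libraries did not overlap for 7 of the 44, all lower, against 9.57% of all tested genes (4.85% lower, 4.73% higher). Judged on counts scaled to library size, they were Adora1, Adora2a, Adra2a, Htr1a, Htr1b, Tacr3 and P2ry4.

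The 3 genes with the smallest p had all fallen after OGD and lay lower still with the proteins. Adora2a had 1.47, 1.21 and 1 FPKM with Wnt3a plus Rspondin 1, against 2.42, 2.02 and 1.79 after OGD alone (log2 change -0.77 ± 0.18, adjusted p = 0.182 by edgeR and 0.0296 by DESeq2). Adora1 had 27.5, 28.3 and 27.6 FPKM with Wnt3a plus Rspondin 1, against 32.4, 32.9 and 35.6 after OGD alone (log2 change -0.30 ± 0.07, adjusted p = 0.157 and 0.00917). Adra2a had 4.15, 3.8 and 3.18 FPKM with Wnt3a plus Rspondin 1, against 5.95, 5.7 and 4.58 after OGD alone (log2 change -0.56 ± 0.14, adjusted p = 0.202 and 0.0331). For each of them every library with the proteins lay below every library with OGD alone. The adenosine receptor genes together had 41.4 to 42.2 FPKM with the proteins, against 48.3 to 52.5 after OGD alone. Of the cell type markers, the astrocyte genes Gja1 and Glul passed in this comparison (log2 change 0.38 ± 0.06 and -0.59 ± 0.07, adjusted p = 0.0404 and 0.00293), and their part in these values was not tested.

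The cholecystokinin receptor genes had few reads. Cckbr had 8, 2 and 5 reads with Wnt3a plus Rspondin 1, against 1, 2 and 2 after OGD alone (log2 change 1.46 ± 0.57, adjusted p = 0.76), so that the level in control, 118, 93 and 130 reads, was far from reached. Cckar had 0, 0 and 1 reads with Wnt3a plus Rspondin 1, against 0, 7 and 6 after OGD alone (log2 change -3.31 ± 1.13, adjusted p = 0.556), and these groups overlapped at 0. Tacr3 had 1, 2 and 1 reads with Wnt3a plus Rspondin 1, against 2, 4 and 6 after OGD alone, and P2ry4 had 1.49, 1.1 and 1.49 FPKM with Wnt3a plus Rspondin 1, against 1.84, 1.68 and 2.53 after OGD alone (adjusted p = 0.816 and 0.825). Of the receptor genes that rose after OGD, Hrh1 and Adora2b had overlapping groups here. Hrh1 had 10.3, 9.27 and 8.34 FPKM with Wnt3a plus Rspondin 1, against 11.2, 10.4 and 9.5 after OGD alone (log2 change -0.18 ± 0.12), and Adora2b had 12.4, 12.7 and 13.4 FPKM with Wnt3a plus Rspondin 1, against 17.6, 13.4 and 13 after OGD alone (log2 change -0.21 ± 0.13).

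Among the best expressed receptors with large falls after OGD, Cnr1 had 11.2, 10.3 and 13.5 FPKM with Wnt3a plus Rspondin 1, against 8.54, 10.1 and 13.1 after OGD alone, with a log2 change of 0.12 ± 0.13 and a 95% interval of -0.16 to 0.41. Sstr1 had 2.67, 3.99 and 5.19 FPKM with Wnt3a plus Rspondin 1, against 4.01, 2.88 and 5.35 after OGD alone, and Chrm1 had 1.56, 2.69 and 2.95 FPKM with Wnt3a plus Rspondin 1, against 1.78, 1.58 and 2.87 after OGD alone. Their groups overlapped (log2 change -0.06 ± 0.25 and 0.19 ± 0.25). For 20 of the 44 tested receptor genes the 95% interval of the change lay within 1 log2 unit of 0 on both sides. For the others a larger change in at least 1 direction lay inside it.

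Set against control, OGD with Wnt3a plus Rspondin 1 gave 40 of 44 receptor genes past the threshold, 37 lower and 3 higher (36% lower and 36.6% higher among all tested genes, 72.6% in all). This comparison shares its control libraries with that of OGD alone. Side by side, the log2 change with the proteins and with OGD alone was -3.29 and -3.48 for Chrm1, -1.87 and -1.99 for Cnr1 and 1.09 and 1.27 for Hrh1. It was -0.98 and -0.68 for Adora1, 0.77 and 0.98 for Adora2b and 0.02 and 0.60 for P2ry4. Oprm1 and P2ry4 passed with OGD alone and not with the proteins (adjusted p = 0.0936 and 0.939), and the direct comparison of the 2 OGD groups did not separate either at an adjusted p of 0.05 (adjusted p = 0.976 and 0.825).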

How the data were processed

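RNA-seq counts and FPKM of 9 libraries were read from the 3 full tables of 22050 rat Ensembl genes. Per the labels' protocols, total RNA went into Illumina TruSeq libraries. Per the file headers the authors deposited a raw count for each gene and library. The FPKM columns, also deposited by the authors, are counts scaled by gene length and library total. Bowtie 0.12.2 and 2 mouse builds, mm8 and mm9, are listed in the submitters' processing notes, although the genes are rat. Which rat build, counter and strand setting were used was not given in the sources used here. Reads of overlapping or antisense genes may therefore be mixed. Columns repeated between tables were identical, and libraries were matched by column name and sample title (WR1 to RW1 and so on).

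Counts were tested with edgeR 4.0.16 in R 4.3.3 on all 9 libraries: filterByExpr (minimum count 10 in 3 libraries, minimum total 15; 13693 of 17332 genes with a read), TMM scaling, a robust quasi-likelihood fit of 3 group means, and Benjamini-Hochberg adjustment over all tested genes. Standard errors came from the F statistic, log2 changes used a prior count of 0.125, and intervals are 95%. The fit was checked on simulated data. Alternatives were RLE factors, library totals, no filter, DESeq2 1.42.0, only the 6 libraries compared, a replicate block, and leaving out each library. Receptors were matched by symbol, and grouped by transmitter and textbook G protein. Those given in full were the 30 with the highest group mean among genes at 1 FPKM or more in a group or with the 5 largest rises or falls. In the comparison of the 2 OGD groups they were the 5 with the smallest p, and up to 3 genes per other list. Values of single genes that the rule named but the text omits are not reported here. The receptors and lists were chosen with earlier results of these data known. Replicates differed by more than sampling noise in every pair (chi-square over degrees of freedom 3.6 to 28.4). Floors and intervals from counts cover counting error only.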

Additional observations from a re-analysis of the deposited data

How the results depend on the processing

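For OGD against control, the number of receptor genes past the threshold was 42 (38 lower, 4 higher) and stayed between 40 and 49 over the 15 alternatives, with 49 of 67 without the filter on low counts. Among all genes, 59.1% (without the filter) to 75.2% (replicate block) passed in these alternatives. Hrh1 and Adora2b stayed higher and past the threshold in each. Drd3 did so too, but it had passed the filter through OGD libraries only. P2ry4 also lost its call with DESeq2 (adjusted p = 0.0897), without the filter (0.062), with the replicate block (0.0584) and without replicate 1 (0.0535) or 3 (0.0507) of OGD with Wnt3a plus Rspondin 1. P2ry1, which never passed, had log2 changes of -0.11 to 0.0955 over the left-out libraries, below 0 without control replicate 1 (-0.00457) and without OGD replicate 2. Library totals in place of TMM moved the median of all genes by about 0.09 (0.105 against 0.0198), and with the proteins against control to 0.138 from 0.0323, with the receptor counts the same.

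For OGD with Wnt3a plus Rspondin 1 against OGD, no receptor gene passed in the main edgeR fit, nor with 13 of the alternatives, including each left-out library. DESeq2 called 3 (Adora1, Adora2a, Adra2a) and edgeR with the replicate block 2 (Adora2a, adjusted p = 0.0484, and Adra2a, 0.0444). Over all genes these settings called 0.752% and 0.475%. Of the other lists in this comparison, the RGS list had 1 call with DESeq2 and 1 with the replicate block, and the amine and acetylcholine list 1 with DESeq2, 1 with the replicate block, 1 without the filter and 0 to 1 over the left-out libraries. The cause was not tested. Against control with the proteins, Drd3 lost its call without replicate 1 of that group (adjusted p = 0.0732) and Tacr1 without control replicate 1 (0.0842). The replicate numbers were only names here: the correlation of same-numbered libraries' deviations from their group means ran from -0.0688 to 0.273, so the numbers were not taken as pairs. Between the 2 OGD groups each library correlated best with its own number (0.232, 0.0734 and 0.267, against -0.238 to -0.0236 for other numbers), a hint from the data and not from the design, and 1 of these 3 lies under 0.1. Genes at a few reads after OGD, such as Adra1d, Cckbr and Oprk1, have changes limited by depth.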
